A study of Homo sapiens with 2 samples.

Results

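The regions described here are 466 GATA2 peaks on chromosome 21, out of 36797 in the deposited list and 574 on the chromosome. Within the chromosome they were chosen by position only, but the chromosome was chosen with its high density in this list already known. A peak belongs if the midpoint of its start and end lies beyond 14.30 Mb of chromosome 21 in hg19 and outside 3 left-out intervals. Those intervals, at 36.06 to 36.53 Mb, 39.64 to 42.98 Mb and 43.97 to 44.30 Mb, add up to 4.14 Mb and held 48 peaks. The longest of them carries the ERG and TMPRSS2 genes, and the first is known to carry RUNX1. Another 60 peaks lay before 14.30 Mb, on the far side of a stretch of 3.15 Mb without a peak. How much of that stretch can be mapped was not examined. The chosen peaks were split at 31 Mb into a gene-poor part with 311 peaks over 16.7 Mb and a gene-rich part with 155 peaks over 12.8 Mb.

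GATA2 is a zinc-finger transcription factor that binds short GATA-containing sequences, often at enhancers far from gene starts. In prostate epithelium it is known as a partner of the androgen receptor, and it is best known for its role in blood stem cells. Chromosome 21 is the smallest human autosome. Its long arm is known for a proximal region with few genes and a distal region with many.

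GATA2 chromatin immunoprecipitation with sequencing was done on 2 replicate samples of LNCaP, an androgen-responsive human prostate cancer cell line, both in one group. Cells grown in 10% serum were held for 3 days in medium with 5% charcoal-treated serum, which is low in steroid hormones. The single deposited peak list does not separate the replicates, so no value below has a replicate error and no p-value was computed. No read counts accompany the peaks, so depth is unknown. Intervals are 95% intervals for counting over peaks only; since peaks sit in groups, they are narrower than the true uncertainty.

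The names of the parts match the gene content in the order of genes of GRCh38.p14. Of its RefSeq protein-coding genes on the chromosome, 29 lie from POTED, a gene near the centromere, up to the gene before GRIK1, the glutamate receptor gene known to span the split. From GRIK1 to the end there are 190, those of the left-out intervals included. Positions of that build were not joined to the peaks. Genes mentioned beside a stretch of the chromosome are background on what that stretch is known to hold in hg19, and no peak was assigned to a gene.

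GATA2 peaks were denser in the gene-poor part of chromosome 21 than in the gene-rich part. The gene-poor part held 18.6 peaks per Mb (exact Poisson interval 16.6 to 20.8). In the gene-rich part the density was 12.1 peaks per Mb (interval 10.3 to 14.2). The ratio of the densities was 1.54 (exact conditional binomial interval 1.26 to 1.87). Against the other 21 autosomes, with 13.1 peaks per Mb of usable length, the gene-poor part had a ratio of 1.42 (interval 1.26 to 1.59). The gene-rich part had a ratio of 0.92 (interval 0.78 to 1.08), which includes equality. The 48 peaks of the left-out intervals gave 11.6 per Mb (interval 8.55 to 15.4), close to the rest of the gene-rich part. Peaks covered 0.596% of the gene-poor part, 0.367% of the gene-rich part and 0.409% of the other autosomes. Usable length here means the distance from the first to the last peak of a chromosome less peak-free stretches longer than 2.5 Mb.

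Peak counts varied widely along the gene-poor part, with several separate blocks of high density. Of the 25 whole 1 Mb bins that lie fully inside the chosen region, 16 are gene-poor and 9 gene-rich. The gene-poor bins held between 3 and 36 peaks with a median of 18.5, and the gene-rich bins between 5 and 25 with a median of 10. The ranges overlap. The autosomal median of 13 peaks was exceeded by 10 of the 16 gene-poor and 4 of the 9 gene-rich bins, against 44.4% of all whole autosomal bins. A bin was called dense if it held at least 21 peaks, the 90th percentile of the 2649 whole autosomal bins. Because of ties, 12.1% of all whole autosomal bins reach that limit. Among the 25 bins, 7 did (28%), of which 6 were gene-poor. In the better-scoring 50% of the list, with the limit taken anew, 3 of the 25 bins were dense (12%), against 11.1% of autosomal bins. The single dense gene-rich bin, 31 to 32 Mb, adjoins the split and a dense gene-poor bin. The variance of the bin counts was 5.63 times their mean in the gene-poor part, 3.29 times in the gene-rich part and 3.21 times on the other autosomes.

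**Figure D1:**
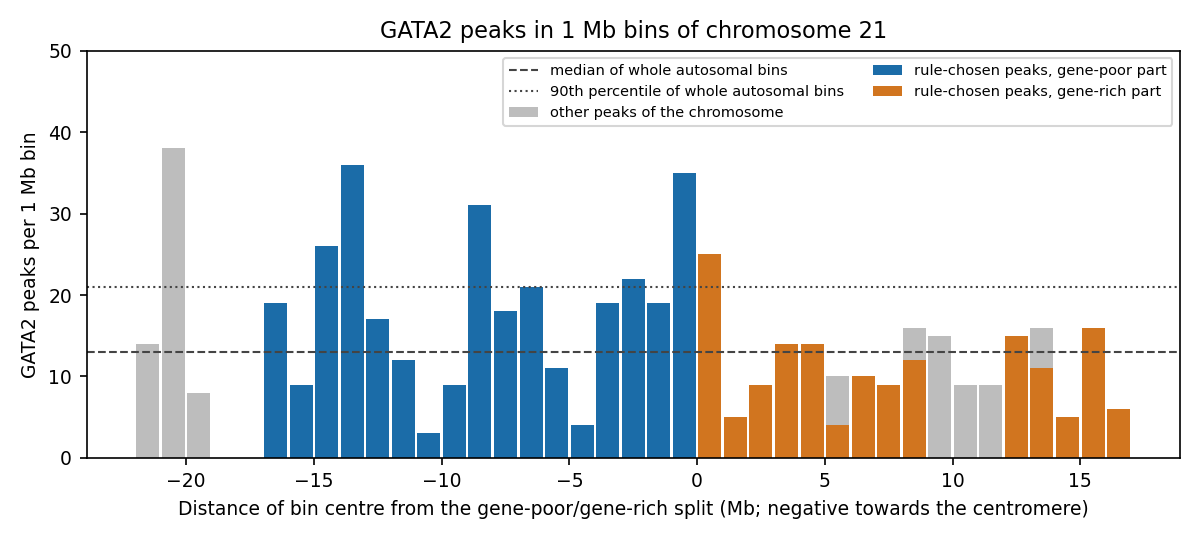
GATA2 peaks in 1 Mb bins of chromosome 21, with the distance of each bin's centre from the split on the x axis (Mb) and the number of peaks on the y axis. Blue and orange bars are the chosen peaks of the gene-poor and gene-rich part, grey bars the other peaks of the chromosome, and the lines mark the autosomal median of 13 and 90th percentile of 21 peaks. The tallest blue bar holds 36 peaks, and 1 orange bar passes the upper line.

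The 7 dense bins formed 5 blocks, which held 196 of the 466 peaks (42.1%) on 23.7% of the length. As the bins were chosen for their counts, a share above that of length and a sparser rest follow from the choice. The like share for dense bins of other autosomes is not given here. Outside the 5 blocks the chosen peaks numbered 12 per Mb. Those counts include 19 peaks on the partial bin from 14.30 to 15 Mb, where the density was 27.1 per Mb. The block from 16 to 18 Mb held 62 peaks, 26 in its first bin and 36 in its second, the most of any whole bin of the chosen region. In hg19 this block is known to hold NRIP1, a corepressor of nuclear receptors, and USP25, a deubiquitinase. It is also known for MIR99AHG, the host of the microRNA genes MIR99A, MIRLET7C and MIR125B2, which lie between USP25 and CXADR in the gene order used here. The median score of its peaks was 186.2 (interval from order statistics 160.0 to 242.8) and their median width 316 bp. The score is the value the authors' peak caller gave each peak; its scale is not stated, and it ranks peaks within this list only. All autosomal peaks have a median score of 214.2.

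The block from 30 to 32 Mb lies across the split and held 60 peaks, 35 before it and 25 after it. BACH1, a repressor that responds to heme, the receptor gene GRIK1 and the tight-junction genes CLDN17 and CLDN8 are known to lie there, followed by a cluster of keratin-associated protein genes. The median score was 222.8 (interval 168.0 to 273.3). The highest-scoring peak of the block, at 31815556 to 31815943, had a score of 952.5 and a width of 388 bp. Another peak centre lay within 10 kb for 34 of the 60 peaks, or 56.7%, against 33.3% of all autosomal peaks. The block was chosen for its many peaks, which brings centres closer, and dense bins of other autosomes were not compared.

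Between 22 and 23 Mb, a bin known to hold the neural adhesion gene NCAM2, there were 31 peaks. Their median score of 332.9 (interval 184.0 to 388.8) was the highest of the 5 blocks, but the intervals of the 5 medians all overlap. The bin from 28 to 29 Mb, known for the extracellular proteases ADAMTS1 and ADAMTS5, held 22 peaks with a median score of 204.4. From 24 to 25 Mb there were 21 peaks with a median score of 248.6. Of these, 2 (9.52%) had another centre within 10 kb, and 9 of 22 (40.9%) did in the bin of the proteases. The same 33.3% to set beside them is that of all autosomal peaks, not of dense bins.

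This last dense bin belongs to a long stretch without known protein-coding genes. NCAM2 and MRPL39 are direct neighbours among protein-coding genes in the GRCh38.p14 order, and the hg19 interval between them is known to include 23 to 26 Mb and most of the next bin. From 23 to 27 Mb there were 54 peaks, or 13.5 per Mb, with a median score of 191.0 (interval 140.9 to 248.6). That density is near the 13.1 per Mb of the other autosomes. The bins of this stretch, in order, held 18, 21, 11 and 4 peaks.

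Sparse bins were found in both parts. The bin from 20 to 21 Mb held 3 peaks and that from 26 to 27 Mb held 4. The longest peak-free stretches of the gene-poor part were 1206 kb (19568108 to 20774102) and 940.2 kb (26205015 to 27145224). In the gene-rich part they were 759.5 kb (32142090 to 32901628), known to overlap the exchange factor gene TIAM1, and 657.7 kb (46796276 to 47453931). The next 3 in length measured 531.6, 383.2 and 261.0 kb in the gene-poor part and 508.7, 440.9 and 286.6 kb in the gene-rich part. No whole bin of the chosen region was empty, and 9 of the 2616 whole bins of the other autosomes were. Depth is unknown, so a stretch without a peak is not shown to be unbound.

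Chromosome 21 had the highest density of the 22 autosomes, 16.2 peaks per Mb (interval 14.9 to 17.6). The chromosome was chosen with this place in the same list known, so its rank is a description and not an independent finding. Chromosome 1 followed with 15.4 (interval 14.9 to 15.9), so the intervals overlap. Among the best-scoring 10% of peaks, chromosome 21 came 12th, with 1.33 per Mb. The chosen peaks alone gave 15.8 per Mb (interval 14.4 to 17.3) and would still come first. The gene-rich part alone would come 16th. Without the 60 peaks before 14.30 Mb and their length, chromosome 21 had 15.3 per Mb and came second, after chromosome 1. Without the 3 left-out intervals its density was 16.9 per Mb, since they were sparser than the rest.

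**Figure D2:**
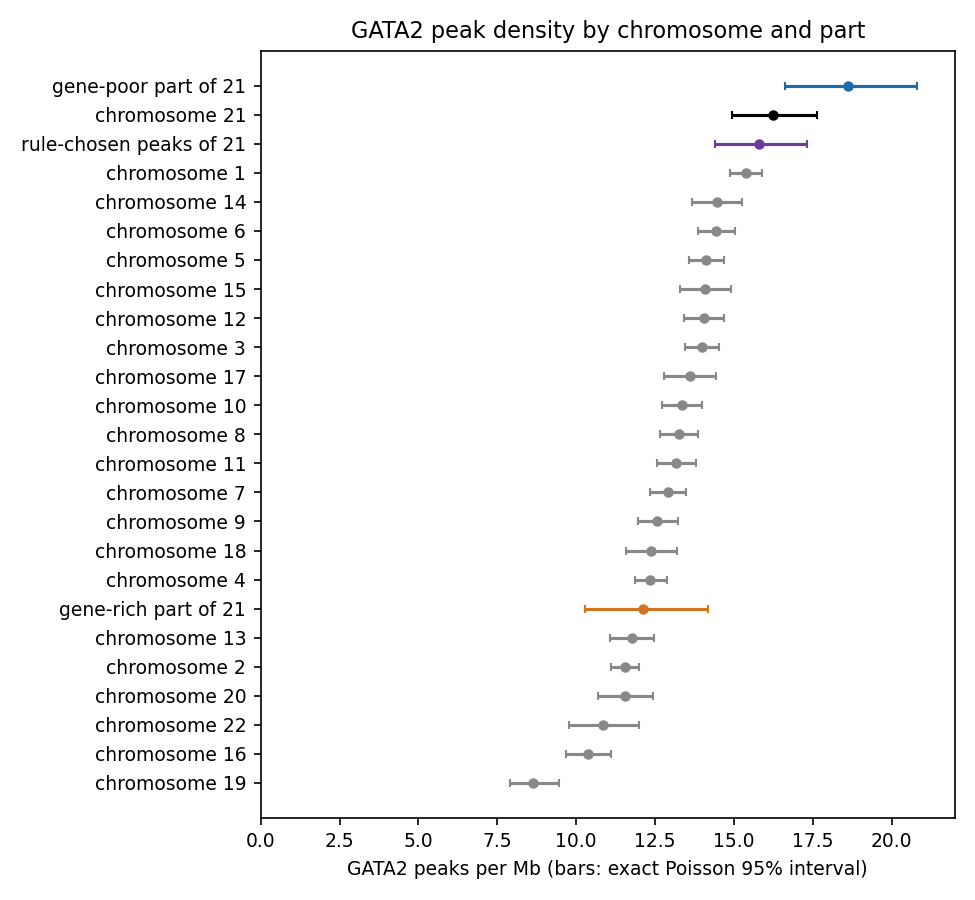
GATA2 peaks per Mb (x axis) for each autosome and for 3 sets of chromosome 21 peaks (rows), with exact Poisson 95% intervals as bars. The gene-poor part lies above every autosome at 18.6 per Mb, and the gene-rich part lies between chromosomes 4 and 13 at 12.1 per Mb.

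The first place of chromosome 21 was by a narrow margin, and leaving out its densest bins lowers its density by construction. The densest whole bin of the chromosome, 10 to 11 Mb with 38 peaks, lies before 14.30 Mb and outside the chosen region. With any 1 of the 8 dense bins of the chromosome left out, chromosome 21 stayed first, at 15.6 to 16.1 peaks per Mb. Without its 2 densest, 10 to 11 Mb and 17 to 18 Mb, it fell to second place at 14.99 per Mb. Without the 2 densest bins of the chosen region, 17 to 18 Mb and 30 to 31 Mb, it had 15.1 per Mb and again came second. Leaving out all 7 dense bins of the chosen region gave 13.3 per Mb and place 10. For the chosen peaks alone, leaving out 17 to 18 Mb was enough to come second, at 15.1 per Mb, and without all 7 bins the density was 12 per Mb, place 16. The other autosomes kept their dense bins in these counts. Where each autosome lost its own dense bins, chromosome 21 came 6th with 12.4 per Mb, behind chromosomes 15, 1, 17, 14 and 12. It had the highest share of dense bins of any autosome, 8 of 33 (24.2%), and chromosome 1 had 47 of 226 (20.8%).

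**Figure D3:**
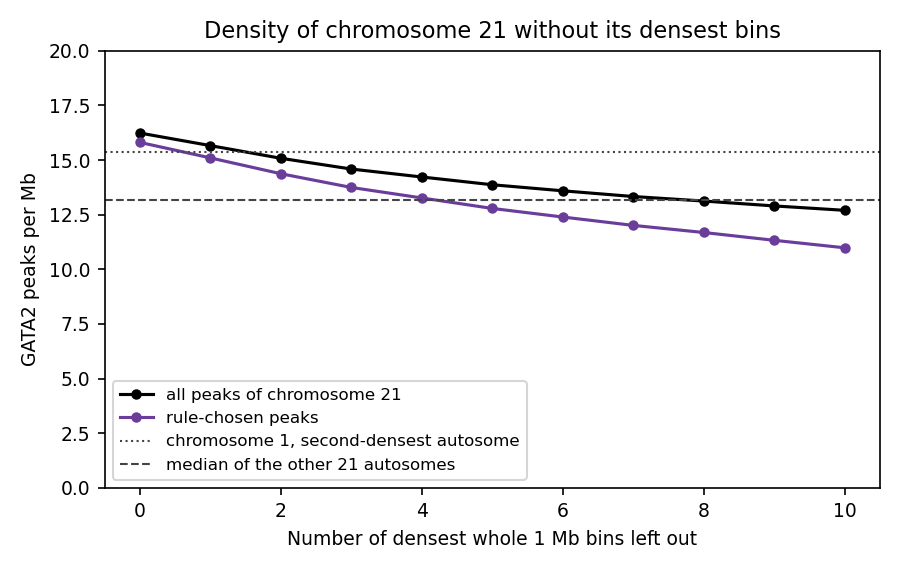
Density of chromosome 21 in GATA2 peaks per Mb (y axis) after its densest whole 1 Mb bins inside the chosen region are left out one after another (x axis, number left out), for all peaks of the chromosome and for the chosen peaks. The black line drops below chromosome 1 at 15.4 per Mb when 2 bins are left out, and the purple line when 1 is.

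Other autosomes hold stretches as dense as the gene-poor part. Its 16 whole bins held 292 peaks, or 18.25 per Mb. Of 2042 windows of 16 consecutive whole bins on the other autosomes, which overlap one another, 57 were at least as dense, or 2.79%. They fall into 9 separate windows on chromosomes 1, 3, 5, 6 and 12. The densest was chromosome 3 from 164 to 180 Mb, with 21.9 per Mb, and the median window had 13.4 per Mb.

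Peaks lay closer together in the gene-poor part, which goes with its higher density and is not a separate result. Spacing was not compared at equal density. Successive centres were a median of 29.3 kb apart in the gene-poor part (interval 23.2 to 34.6 kb), 46.4 kb in the gene-rich part (36.3 to 59.5 kb) and 41.2 kb on the other autosomes. Another centre lay within 10 kb for 132 of the 311 gene-poor peaks, or 42.4% (Wilson interval 37.1% to 48%). The gene-rich count was 53 of 155, or 34.2% (interval 27.2% to 42.0%), and 33.3% of all autosomal peaks have such a neighbour. The intervals of the 2 parts overlap. Isolated peaks, more than 100 kb from any other centre, made up 1.61% of the gene-poor peaks (5 of 311) and 7.74% of the gene-rich peaks (12 of 155), against 7.37% of all autosomal peaks. Those intervals, 0.689% to 3.71% and 4.48% to 13%, do not overlap. At the shortest range the values were close: 15 gene-poor peaks (4.82%) and 8 gene-rich peaks (5.16%) had a centre within 1 kb, against 5.91% of all autosomal peaks.

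**Figure D4:**
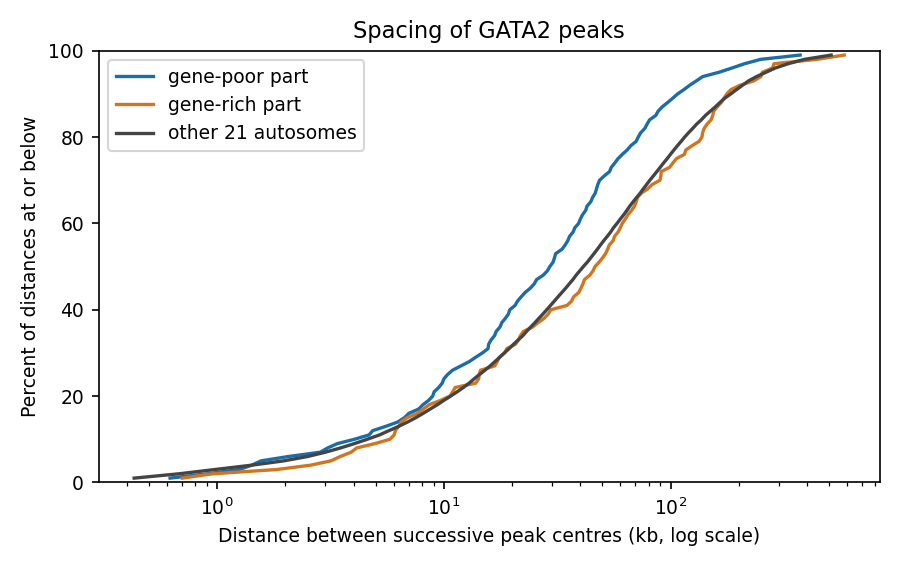
Cumulative percent of distances between successive GATA2 peak centres (y axis) against the distance in kb on a log scale (x axis), for both parts of chromosome 21 and the other 21 autosomes. The curve of the gene-poor part lies to the left of the others between about 10 and 100 kb, with a median of 29.3 kb against 46.4 and 41.2 kb.

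The runs of neighbouring peaks found lay in the gene-poor part, where a higher density makes runs more likely. Runs were not compared at equal density either. A run was 5 or more peaks in a row, each within 10 kb of the next by its centre. The chosen region held 1, of 5 peaks at 14338307 to 14353427 with a median score of 134.3, right at its centromeric edge. That is 0.34 runs per 10 Mb of the chosen region and 0.60 per 10 Mb of the gene-poor part, and the other autosomes had 0.41. With at least 4 peaks there were 3 runs, or 1.80 per 10 Mb of the gene-poor part, and 1.04 on the other autosomes. With centres up to 20 kb apart there were 6 runs, all in the gene-poor part, or 3.59 per 10 Mb there and 1.37 per 10 Mb on the other autosomes. The longest of the 6 held 8 peaks over 91.1 kb (22669432 to 22760576), with scores from 174.0 to 1328 and a median of 378.1. It lies in the interval known for NCAM2. Another 5 peaks at 22220581 to 22272793 had a median score of 388.8. The remaining runs were at 17122045 to 17150948 (5 peaks, median score 128.2), 18899606 to 18950289 (6 peaks, 189.6), 19442646 to 19474653 (5 peaks, 220.7), and at the edge, where the run already named grew to 7 peaks with a median score of 92.4. The runs therefore differed widely in score, and the 2 with the highest medians both lay between 22 and 23 Mb.

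Scores did not separate the parts. The median was 206.3 in the gene-poor part (interval 180.3 to 226.8), 222.8 in the gene-rich part (187.2 to 294.5) and 214.3 on the other autosomes. Peaks in the best-scoring 10% of the autosomal list numbered 24 in the gene-poor part (7.72%, Wilson interval 5.24% to 11.2%) and 11 in the gene-rich part (7.10%, interval 4.01% to 12.3%), against 10.0% of all autosomal peaks. The limit for that class was a score of 693.7. The best-scoring 10% of the list, used for the rank of the chromosome and for the alternatives, was cut separately. It held 25 gene-poor and 12 gene-rich peaks. Peaks scoring 1000 or more were 9 (2.89%) and 5 (3.23%), against 3.79%. Scores under 100 were found in 39 gene-poor peaks (12.5%) and 15 gene-rich peaks (9.68%), against 11.7%. The intervals around these shares of the 2 parts overlap.

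The higher density of the gene-poor part was present at every score level. With autosomal peaks divided into 4 equal classes by score, the ratio of gene-poor to gene-rich density was 1.55 in the lowest class, 1.69 in the second, 1.51 in the third and 1.38 in the highest. The interval of the highest class, 0.91 to 2.14, includes 1. Those of the other classes begin at 1.03, 1.14 and 1.04, in rising order of score. These intervals treat peaks as independent and are too narrow for peaks that sit in groups. Whether they would still lie above 1 with the grouping allowed for was not tested. In the highest class, above a score of 399.7, the gene-poor part had 3.89 peaks per Mb, the gene-rich part 2.82 and the other autosomes 3.29.

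**Figure D5:**
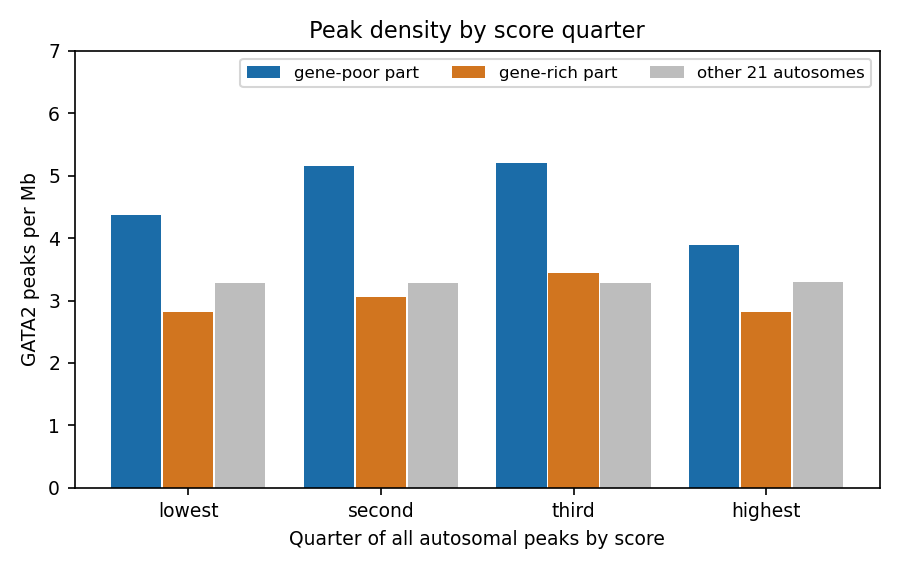
GATA2 peaks per Mb (y axis) in 4 equal classes of autosomal peaks by score (x axis), for both parts of chromosome 21 and the other 21 autosomes. The blue bars of the gene-poor part stand between 3.89 and 5.21 per Mb, above the orange and grey bars in each class.

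Widths were close in the parts. The median was 306 bp in the gene-poor part (interval 291 to 323 bp), 293 bp in the gene-rich part (260 to 318 bp) and 295 bp on the other autosomes. Within the highest score class it was 440 bp, 403.5 bp and 412 bp in that order. Peaks of at least 500 bp numbered 28 (9%) and 9 (5.81%), with overlapping intervals of 6.30% to 12.7% and 3.08% to 10.7%, and 6.93% of autosomal peaks were that wide. Score and width ran together across the 466 peaks (Spearman's rho 0.83, a description over peaks that share one library set), as they did on the other autosomes (0.83).

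Of the 10 highest-scoring chosen peaks, 5 lay in each part, which is 1.61% of the gene-poor and 3.23% of the gene-rich peaks. First was a peak of 852 bp at 24852675 to 24853526, which scored 1533 and was also the widest of the 466. It lies in the stretch without known protein-coding genes, and its nearest neighbouring centre was 21 kb away. The second, at 46131516 to 46131937 in the gene-rich part, scored 1475 and was 422 bp wide. The third lay at 44484526 to 44485096, scored 1358 and measured 571 bp, just beyond the last left-out interval in a stretch known for CBS, an enzyme of cysteine synthesis. The fourth, at 22712887 to 22713577, scored 1328 and belongs to the run of 8 peaks in the NCAM2 interval.

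Of the other 6, those of the gene-poor part were at 29922413 to 29923068 (score 1273), 27237886 to 27238319 (1130) and 19442646 to 19443157 (1113). The second of these lies near the end of APP, the gene of the amyloid precursor protein, as that gene is known to be placed in hg19. The gene-rich ones were at 39633738 to 39634199 (1200), 37728109 to 37728553 (1154) and 35486203 to 35486641 (1149). In the whole list these 10 peaks ranked between place 154 and place 903. Scores on the other autosomes reached 3100, above every chosen peak.

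Among the next 4 peaks by width, 3 scored above 399.7, in the highest class. That at 24524793 to 24525585 had a width of 793 bp and a score of 480.6. Next, the peak at 39358981 to 39359758 was 778 bp wide with a score of 610.8, and that at 22831984 to 22832710 was 727 bp wide with 532.9. The fifth, in the GRIK1 block at 31234796 to 31235507, was 712 bp wide and scored 250.03.

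At the limits of the rule, the first chosen peak after 14.30 Mb began at 14338307 and scored 225.8, and the last peak before that limit ended at 11186894 and scored 154.9. The 19 chosen peaks before 15 Mb were low and narrow, with a density of 27.1 per Mb, a median score of 97.8 and a median width of 160 bp, and 10 of them scored under 100. Without them the gene-poor part had 18.2 peaks per Mb, a ratio to the gene-rich part of 1.505 (interval 1.23 to 1.84) and a median score of 217.0. The highest-scoring peak next to a limit was that at 39633738, which scored 1200 with its midpoint 6.03 kb inside the chosen region. The nearest excluded peak on the other side of that limit, at 39715769 to 39716097, scored 362.6. Beside the other end of that interval, the last excluded peak at 42902291 to 42902684 scored 804.2 and the first chosen one at 43199938 to 43200349 scored 732.1. At the ends of the interval around RUNX1, chosen peaks at 35987543 to 35987816 and 36621832 to 36622255 scored 262.9 and 679.3. Excluded ones at 36109200 to 36109556 and 36319483 to 36319799 scored 284.0 and 167.3. Next to the last left-out interval, the chosen peaks at 43945842 to 43946027 and 44367632 to 44367793 scored 104.8 and 156.1. The excluded peaks at 44011882 to 44012188 and 44227742 to 44227861 scored 244.7 and 80.29. At the split, the peaks at 30754414 to 30754718 and 31037016 to 31037159 scored 270.2 and 90.17.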

How the data were processed

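GATA2 ChIP-seq peaks of 2 LNCaP replicates were analysed from 1 deposited list. Bowtie and the build hg19 are named per the submitters' processing notes, and the peak names in the file name MACS as the caller. Versions, control library, duplicate handling and pooling of replicates were not stated there. The list deposited by the authors holds a start, an end and a score per peak; the score's scale is not stated. No column belongs to a single replicate.

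Starts were made 1-based and centres taken as midpoints. Densities have exact Poisson 95% intervals, their ratios exact conditional binomial intervals, shares Wilson intervals and medians order-statistic intervals. No test was run, since there is 1 group with no value per replicate. The functions were tested on simulated data. Peaks were named by fixed rules: the 10 highest scores, the 5 widest, those beside each limit, the dense blocks, runs and longest peak-free stretches. Members, rules and lists were chosen with earlier results of these data known. Alternatives were score subsets, merging, other splits, bins, distances and runs. All 27 background gene names looked up matched the RefSeq table (GRCh38.p14), used for names and order only. No hg19 genome or annotation was used here, so motifs, sequences and distances to genes were not analysed. Python 3.11.15, numpy 2.4.6, pandas 2.3.3, scipy 1.17.1 and matplotlib 3.10.9 were used.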

Additional observations from a re-analysis of the deposited data

How the results depend on the processing

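The ratio of gene-poor to gene-rich density, 1.54, stayed above 1 in all 11 alternatives. It was 1.24 with the split moved 2 Mb towards the centromere and 1.19 (interval 0.93 to 1.52) without the 7 dense bins. In the other 9 it lay between 1.28 and 1.72, with the lowest where the split moved 1 Mb towards the centromere. Either move puts the dense bins from 30 to 32 Mb in the gene-rich part. Among the best-scoring 10% of peaks the ratio was 1.59, with an interval of 0.77 to 3.48 that includes 1. The first place of chromosome 21 among 22 autosomes became 16 for the gene-rich part alone, 2 without the peaks before the start of the chosen region and 12 among the best-scoring 10% of peaks; the cause was not tested. Among the better-scoring 50% it stayed first. The share of peaks with a close neighbour was 23.8% (gene-poor) and 18.1% (gene-rich) at 5 kb, 70.1% and 59.4% at 25 kb, and 28.8% and 21% among the better-scoring 50%. Among the best-scoring 10% it was 0% of 25 and 0% of 12 peaks, which with a limit of 3 counts allows up to 12% and 25%. In both score subsets neighbours were sought only within the subset, so fewer could be found. In the full list the peak that scored 1328 had another centre 4.78 kb away. The median distance between centres was 54.6 and 71.0 kb for the better-scoring 50% and 215 and 930.4 kb for the best-scoring 10%, by fewer peaks. Median scores of 366 and 377 and median widths of 381 and 358 bp in the better-scoring 50% follow from that selection. Dense bins made up 28% of whole bins, and 12% among the better-scoring 50%, where 11.1% of autosomal bins were dense. The single run became 0 at 5 kb, 6 at 20 kb and 3 with at least 4 peaks. Of all 79 alternative values, 54 stayed within the interval or at the place of the value reported. Leaving out the dense bins or the peaks before 15 Mb was chosen after seeing the data. No replicate could be left out, and gene starts and motifs were not run. No paired analysis was possible because the list carries no replicate numbers.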

Other observations

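The 60 chromosome 21 peaks before 14.30 Mb, between 9414393 and 11186894, had a median score of 152.0 and a median width of 309 bp, and 40 of them (66.7%) had another centre within 10 kb. The highest of them scored 1950, above every chosen peak. They are separated from the chosen peaks by 3.15 Mb without a peak, a stretch not examined for how much of it can be mapped.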
